A study of Mus musculus with 4 samples.

Results

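The genes described here are the transcription factors that drive adipocyte formation and the proteins that take up, bind, desaturate and store fatty acids in fat cells. They are Pparg, Cebpa, Cebpb, Cebpd, Fabp4, Lpl, Adipoq, Cd36, Scd1 and Scd2, chosen by gene name. On the arrays, 16 of 41174 probes carry one of these 10 of 27827 gene names. IP6K1, the inositol hexakisphosphate kinase whose loss was studied, is known for a role in the fat tissue of mice, and the question is whether the fat cell programme differs in cells that lack it.

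RNA of mouse embryonic fibroblasts (MEFs) was measured with Agilent whole-genome arrays and 1 dye, Cy3. There were 2 Ip6k1+/+ lines and 2 Ip6k1-/- lines, each from a separate embryo of embryonic day 14 and each on 1 array, with no treatment. All 4 lines came from the litter of 1 heterozygous pair, carry SV40 large T antigen as the immortalising agent, were thawed and passaged, and were harvested by trypsin while growing exponentially. A line is therefore 1 immortalised culture, and differences between lines of 1 genotype include whatever differed between the embryos and arose during immortalisation. No hormone cocktail that turns fibroblasts into fat cells is named for these cultures. Signals are given as log2 of the background-corrected intensity minus the 75th percentile of its array, so that 0 marks that percentile and a difference of 1 is a 2-fold change.

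Adipocyte formation begins with C/EBPβ and C/EBPδ (Cebpb and Cebpd), which are induced early and raise the level of PPARγ (Pparg) and C/EBPα (Cebpa). These later factors then maintain each other and switch on the genes of the mature fat cell, among them Fabp4, Lpl, Cd36 and Adipoq. Fibroblasts are not fat cells, but embryonic fibroblasts can be turned into them, and their cultures can hold cells at different distances from that state.

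The arrays were similar in signal. Each held 43379 spots that are not controls, from 52.0% to 55.5% of its probes gave a signal well above background, and 21572 probes were tested because they were well above background in both lines of at least 1 genotype. The labels were checked with Ip6k1, for which the signal of all 3 probes was lower in both Ip6k1-/- lines and 2 probes passed the test (limma adjusted p = 0.0355 for both). These were 2 of the 3 probes called on the whole array. Neither was well above background in the Ip6k1-/- lines. The other Ip6k1 probe, well above background in all 4 lines, had a limma adjusted p of 0.367. All 9 fibroblast markers examined were well above background in every line. Of 8 adipocyte markers, 7 were so in none, namely Adipoq, Plin1, Cidec, Lep, Retn, Cfd and Adrb3. The other, Lipe, was well above background in all 4 lines, at -4.30 and -4.01 in Ip6k1+/+ and -3.91 and -4.31 in Ip6k1-/- MEFs. Of other cell types, the macrophage markers Ptprc, Emr1 and Itgam, the endothelial markers Pecam1, Cdh5, Tek and Tie1 and the epithelial marker Cdh1 were not well above background in any line. By contrast, the macrophage markers Cd14 and Cd68, the endothelial marker Kdr and the epithelial keratin gene Krt18 were above it in all 4 lines, and Krt5 in both Ip6k1+/+ lines, so that Cdh1 was the only 1 of 5 epithelial markers without signal.

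The probes behind these signals are stretches of 60 bases. For Fabp4, Lpl and Cebpb, on which the results turn, 4 probes are shown, and each of them reads through without a stop codon in at least 1 frame. All are printed in lower case in the direction of the array file. Of these 4, Fabp4 A_52_P564544 and Lpl A_52_P257812 did not enter the test. The Lpl difference given below comes from A_51_P259296, which is not shown. The 2 Fabp4 probes lie on the minus strand of chromosome 3 in the mm9 build, A_51_P336830 at chr3:10204533-10205262, a span longer than the probe, and A_52_P564544 at chr3:10208442-10208501. The Lpl probe lies at chr8:71425050-71425109 and the Cebpb probe at chr2:167515309-167515368, both on the plus strand.
Fabp4 A_51_P336830: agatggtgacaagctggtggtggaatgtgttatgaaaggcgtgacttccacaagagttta
Fabp4 A_52_P564544: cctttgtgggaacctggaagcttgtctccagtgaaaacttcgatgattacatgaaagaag
Lpl A_52_P257812: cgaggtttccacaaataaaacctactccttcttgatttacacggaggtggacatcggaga
Cebpb A_52_P605846: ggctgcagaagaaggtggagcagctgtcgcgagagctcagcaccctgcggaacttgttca
The G and C bases make up 45.0% and 43.3% of the 2 Fabp4 probes, 45.0% of the Lpl probe and 60.0% of the Cebpb probe. The 2 Fabp4 probes share no stretch of their transcript, since their positions do not overlap, and a further Fabp4 probe and a further Lpl probe, which are not shown, lie at 10204452 to 10204511 and at 71430267 to 71430326 on the same chromosomes.

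Of the 16 member probes, 7 were well above background in all 4 lines, 5 in some and 4 in none. The test took in 10 member probes for 8 genes. In these lines, Cebpb was the 1 member whose signal was lower in both Ip6k1-/- lines than in both Ip6k1+/+ lines, Scd1 and Scd2 differed little, and the signals of Fabp4 and Lpl differed far more between lines of 1 genotype than between genotypes. No member probe passed the test at a limma adjusted p of 0.05, where 0.0139% of all probes tested did, and the lowest adjusted p of a member probe was 0.993. A limma p below 0.05 without adjustment was given to 2 member probes, both of Cebpb, beside 3.34% of all probes tested. The 2-fold rule asked for genotype means that differ by 1 or more, and for each Ip6k1-/- line to lie 0.9 or more beyond the Ip6k1+/+ mean. By this rule 1 member probe was lower beside 1.87% of all probes, and 0 were higher beside 1.06%. The genotypes were fully separated, with the Ip6k1-/- lines on the lower side, for 2 member probes (12.6% of all probes), and with these lines on the upper side for 0 (18.8% of all probes). For the other 8 member probes tested the genotypes overlapped. The lower count changed whichever line was left out, and the higher count without either Ip6k1-/- line. No share of all probes was computed for these settings, so the changed counts are not given. With 1 Ip6k1-/- line, the limit of 0.9 adds nothing to that of 1. The median difference of the member probes tested was -0.74 on the log2 scale, or -0.51 with values not well above background raised to the array's limit, and that of all probes tested was 0.05. This limit is the faintest signal that still counted as well above background on that array. Of probes detected in every line, 1.21% passed the 2-fold rule on the lower side, with 1 of the 7 member probes, and 0.611% on the higher side, with 0 of them. The arrays measure whole cultures, so fewer cells that express a gene and less RNA per cell cannot be told apart.

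**Figure D1:**
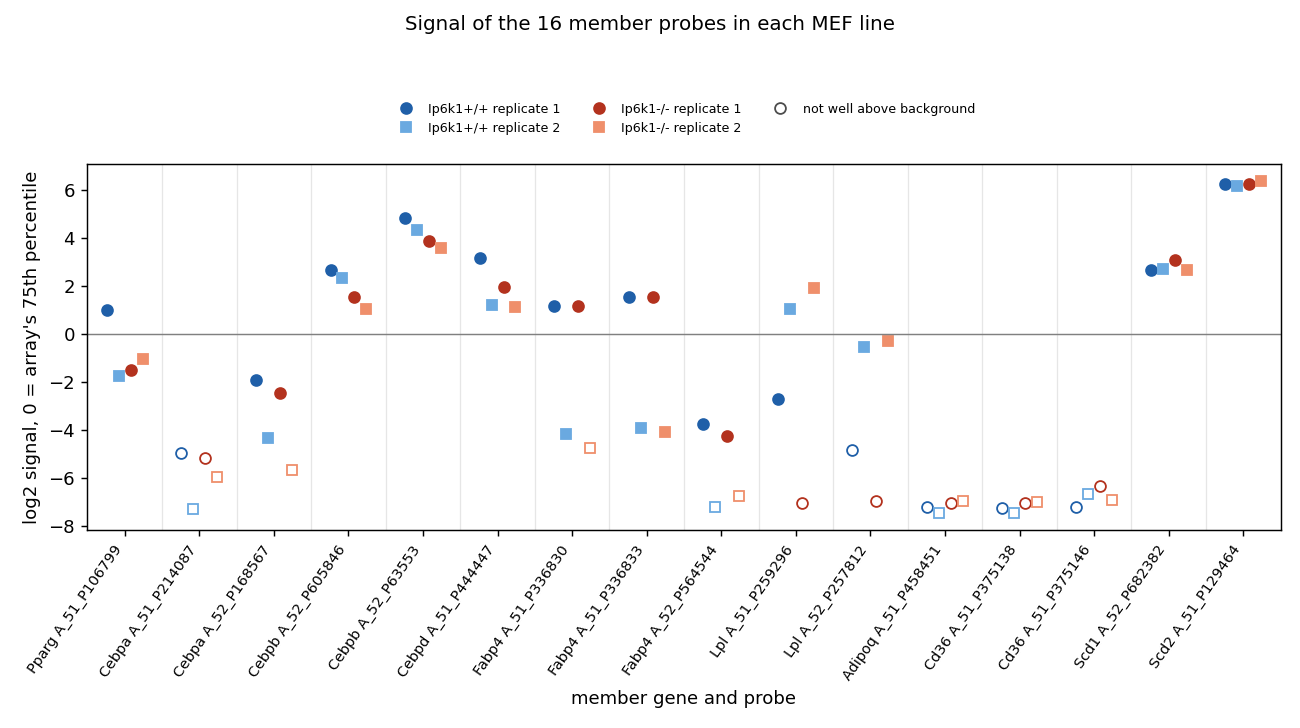
Log2 signal relative to the 75th percentile of each array (vertical axis) for each of the 16 member probes (horizontal axis) in the 4 MEF lines, 1 point per line, filled where the signal was well above background and open where it was not. The 2 Cebpb probes are lower in both Ip6k1-/- lines, Fabp4 is high in replicate 1 of both genotypes, and Lpl is high in replicate 2 of both genotypes.

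Cebpb encodes C/EBPβ, an early factor of the adipocyte programme that also acts in inflammation and growth. Its probe A_52_P605846 read 2.67 and 2.33 in Ip6k1+/+ replicates 1 and 2, and 1.53 and 1.06 in Ip6k1-/- replicates 1 and 2. The genotypes did not overlap, and the gap between them was larger than the gap within either. The mean fell from 2.50 ± 0.24 (SD, n = 2 lines) to 1.30 ± 0.33, a difference of -1.20 with a standard error of 0.27, which is a 2.30-fold higher signal in Ip6k1+/+ MEFs. This probe passed the 2-fold rule, although its limma adjusted p of 0.993 did not pass the test. The second Cebpb probe, A_52_P63553 at 167515847 to 167515905 on chromosome 2, read 4.83 and 4.34 in Ip6k1+/+ and 3.90 and 3.59 in Ip6k1-/- MEFs. Its order of the lines was the same, and its difference of -0.84 with a standard error of 0.25 stayed under the 2-fold rule. The 95% intervals of the differences ran from -1.90 to -0.50 and from -1.50 to -0.18. Each is for 1 probe and is not adjusted for the number of probes tested. Without Ip6k1+/+ replicate 1 the difference of A_52_P605846 was -1.03, and it no longer passed the 2-fold rule.

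Cebpd encodes C/EBPδ, the partner of C/EBPβ in the early phase. Its probe A_51_P444447, at 15888459 to 15888518 on chromosome 16, read 3.17 and 1.22 in Ip6k1+/+ and 1.97 and 1.14 in Ip6k1-/- MEFs. Both replicate 1 lines lay above both replicate 2 lines, with Ip6k1+/+ replicate 1 the highest, and the genotypes overlapped. The difference was -0.64 with a standard error of 0.71. Without Ip6k1+/+ replicate 1 it was 0.33.

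Pparg encodes PPARγ, the nuclear receptor without which fat cells do not form. Its only probe, A_51_P106799, is printed in 10 spots on each array and lies at 115440213 to 115440272 on chromosome 6. It read 0.99 in Ip6k1+/+ replicate 1 and -1.76 in Ip6k1+/+ replicate 2, beside -1.50 and -1.03 in the Ip6k1-/- lines. The intensity of these lines was 1215, 221, 217 and 332, so that 1 Ip6k1+/+ line was bright and the other lay with the Ip6k1-/- lines. The difference of the means was -0.88 with a standard error of 0.94 (limma adjusted p = 0.993). The gap of 2.75 between the Ip6k1+/+ lines was reached by 1.74% of all probes tested. Without Ip6k1+/+ replicate 1 the difference was 0.50.

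Cebpa encodes C/EBPα, the factor that acts with PPARγ late in differentiation. The probe A_52_P168567, at 35906517 to 35906576 on chromosome 7, read -1.93 and -4.35 in Ip6k1+/+ and -2.47 and -5.68 in Ip6k1-/- MEFs, the last not well above background. In both genotypes replicate 1 was above replicate 2, by 2.42 in Ip6k1+/+ and by at least 2.21 in Ip6k1-/- MEFs, where the dim line was set to its array's limit. The difference of the means was -0.93 with a standard error of 1.34, and -0.43 with that limit. The other Cebpa probe, A_51_P214087 at 35905361 to 35905420, gave no signal well above background.

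Fabp4 encodes the fatty acid binding protein of fat cells and macrophages and is a target of PPARγ. The probe A_51_P336833 read 1.56 in the first Ip6k1+/+ line (replicate 1) against -3.91 in the other. The Ip6k1-/- lines read 1.54 (replicate 1) and -4.10 (replicate 2). Each genotype thus had 1 line with a high and 1 with a low signal, at nearly the same levels. The intensity was 1799, 49.7, 1784 and 39.6 in this order. The probe A_51_P336830 gave the same order, with 1.18 and -4.17 in Ip6k1+/+ and 1.16 and -4.74 in Ip6k1-/- MEFs, the last not well above background. The dim probe A_52_P564544 was well above background in the replicate 1 line of each genotype, at -3.75 and -4.27, and not in the replicate 2 lines, so that it did not enter the test. The difference between the genotype means was -0.10 for A_51_P336833, with a standard error of 2.57, and -0.27 for A_51_P336830 with the dim line at its array's limit. The gap between lines was 5.47 in Ip6k1+/+ and 5.64 in Ip6k1-/- MEFs for A_51_P336833, which was well above background in every line. A gap as large was found for 0.158% and 0.287% of all probes tested in these genotypes, where the median gap of all probes was 0.36 and 0.31.

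Lpl encodes lipoprotein lipase, which frees fatty acids from circulating lipoproteins and is also made by preadipocytes and macrophages. The probe A_51_P259296 read -2.70 and 1.04 in Ip6k1+/+ and -7.06 and 1.93 in Ip6k1-/- MEFs, with Ip6k1-/- replicate 1 not well above background. Here the replicate 2 line was the high one in both genotypes, the reverse of Fabp4. The intensity was 94.0, 1537, 4.57 and 2590. The second Lpl probe, A_52_P257812, read -0.54 in Ip6k1+/+ and -0.27 in Ip6k1-/- replicate 2, while neither replicate 1 line gave a signal that counted as above background. The fitted difference of the means for A_51_P259296 was -1.74 with a standard error of 3.18, and -0.58 with the dim line at its array's limit. Without that line, Ip6k1-/- replicate 1, it was 2.76, and without Ip6k1+/+ replicate 2 it was 0.13 with dim values as measured. Leaving out either line thus turned its direction. The gap between the Ip6k1-/- lines was at least 6.69. The gap of 3.74 between the Ip6k1+/+ lines was reached by 0.783% of all probes tested.

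**Figure D2:**
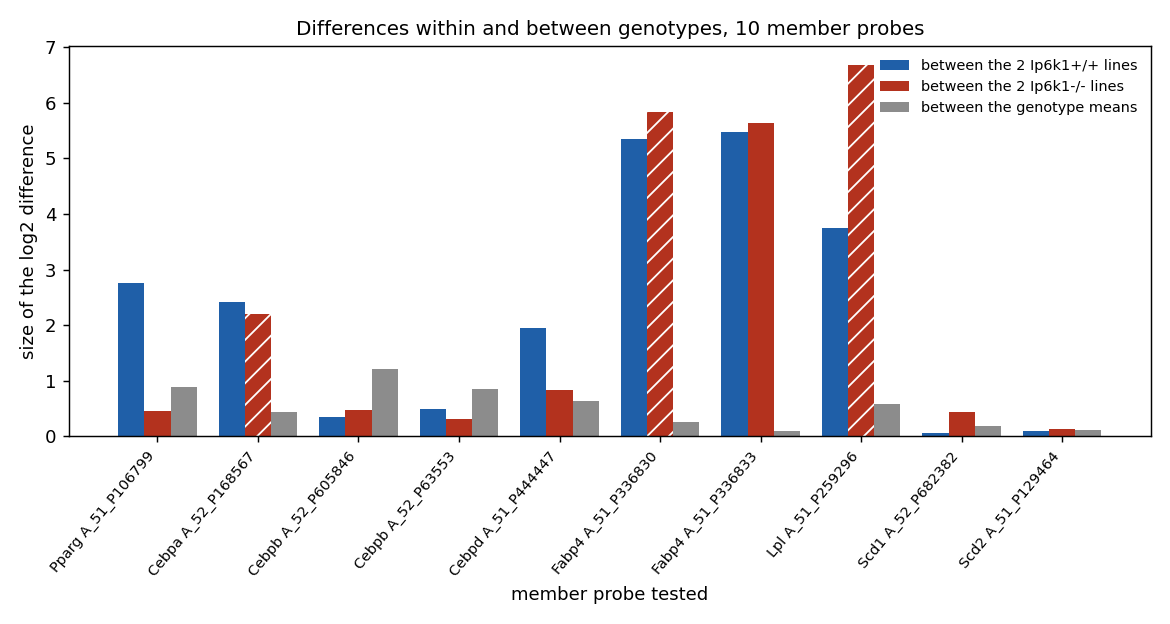
Size of the log2 difference (vertical axis) for each of the 10 member probes tested (horizontal axis), as bars for the gap between the 2 Ip6k1+/+ lines, the gap between the 2 Ip6k1-/- lines and the difference between the genotype means. A line not well above background stands at its array's limit, and the hatched bars are then lower bounds. For the 2 Cebpb probes the bar between genotypes is the tallest, and for Fabp4 and Lpl the gaps within genotypes, 3.74 or more, exceed the differences between them.

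The replicate numbers are names of lines, and nothing in the labels ties replicate 1 of one genotype to replicate 1 of the other. Across the lines, the orders of Cebpa and Cebpd resembled that of Fabp4, with both replicate 1 lines above both replicate 2 lines. Pparg, by contrast, was high in Ip6k1+/+ replicate 1 alone. In Ip6k1-/- replicate 1 the Fabp4 signal was therefore high beside a Pparg signal of -1.50. The fibroblast marker Thy1 also varied between lines, at 1.41 and 6.02 in Ip6k1+/+ and 3.98 and 5.52 in Ip6k1-/- MEFs, lower in replicate 1 of each genotype. Pdgfra, a receptor of mesenchymal precursors and also on the fibroblast list, went the other way, at 0.20 and -2.19 in Ip6k1+/+ and -1.08 and -2.33 in Ip6k1-/- MEFs, and was singled out after its values were seen. The part of either in the Fabp4 and Lpl values was not tested.

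Scd1 and Scd2 encode stearoyl-CoA desaturases, which make monounsaturated fatty acids and are used by many growing cells besides fat cells. The Scd1 probe A_52_P682382, at 44469387 to 44469446 on chromosome 19, read 2.67 and 2.72 in Ip6k1+/+ and 3.10 and 2.65 in Ip6k1-/- MEFs. The Scd2 probe A_51_P129464, at 44381024 to 44381083 on the same chromosome, read 6.26 and 6.16 in Ip6k1+/+ and 6.26 and 6.39 in Ip6k1-/- MEFs. All lines lay close together for both genes and the genotypes overlapped. The difference was 0.18 for Scd1, with a 95% interval from -0.42 to 0.79, and 0.11 for Scd2, with an interval from -0.32 to 0.55. For Scd2 the interval stays within a 1.46-fold rise and for Scd1 within a 1.72-fold rise. No spot of a member probe was saturated, but the saturated S100a4 probe read 6.64, 6.36, 6.65 and 6.52 on these arrays, so that Scd2 lay close to the top of the scale and a rise there could not be fully measured.

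Adipoq encodes adiponectin, a hormone made by mature fat cells, and Cd36 a membrane protein for fatty acid uptake. The Adipoq probe A_51_P458451, at 23157576 to 23157635 on chromosome 16, was not detected above background in all 4 lines. The 2 Cd36 probes on chromosome 5, A_51_P375138 and A_51_P375146, were not well above background in any line either. No level or difference is given for these genes.

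The other genes of fat cell formation and lipid storage were examined in 8 lists of 130 genes, of which 128 are on the array and 103 were tested with 1 probe each. No listed gene passed the test at a limma adjusted p of 0.05, and 6 had an unadjusted limma p below 0.05, beside 3.34% of all probes. By the 2-fold rule 5 were lower and 1 was higher in Ip6k1-/- MEFs, beside 1.87% and 1.06% of all probes tested. Of the 5, Rarres2 and Klf15 entered the test only through the Ip6k1+/+ lines, and Rbp4 was dim in 1 Ip6k1-/- line. Among the 97 genes well above background in every line, 2 were lower and 1 was higher, beside 1.21% and 0.611% of all such probes. Both Ip6k1-/- lines were below both Ip6k1+/+ lines for 16 of the 103 genes (12.6% of all probes) and above them for 12 (18.8% of all probes), and the median difference was -0.04. Both counts by the 2-fold rule changed whichever line was left out, and the changed counts are not given here either. The genes past the rule were Rbp4, Rarres2, Egr2, Klf15, Id2 and Mogat2.

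**Figure D3:**
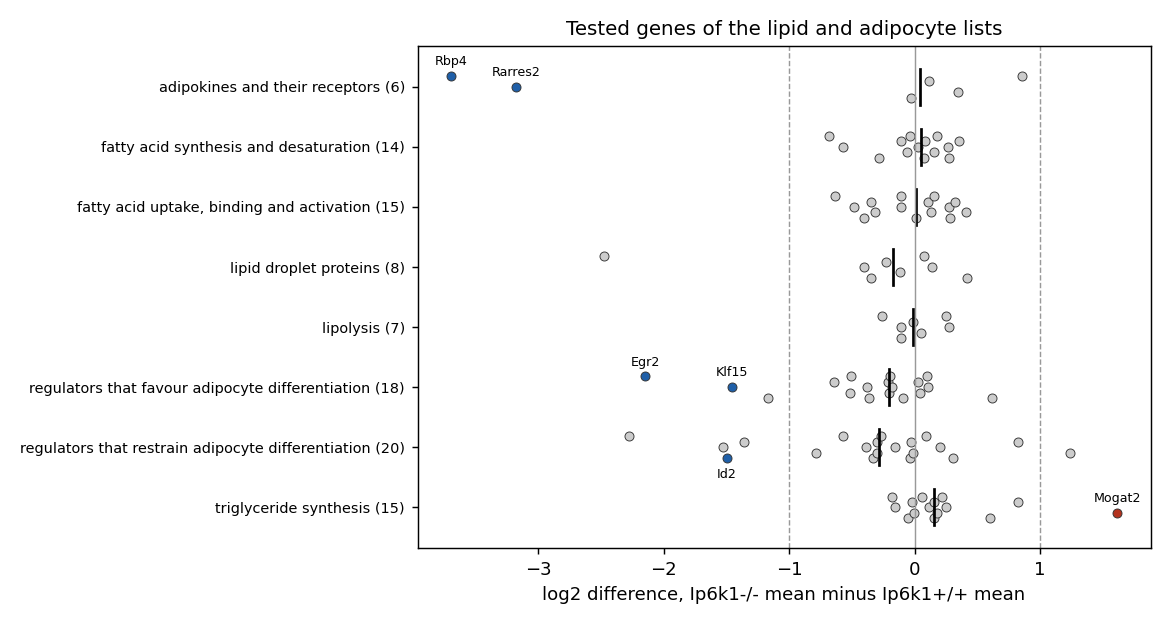
Difference between the genotype means (log2, horizontal axis) for each tested gene of the 8 lists, with the number of genes in brackets, a bar at each list's median and dashed lines at a 2-fold change, with dim values as measured. Genes past the 2-fold rule are coloured and named, 5 to the left and 1 to the right, and the list medians lie between -0.28 and 0.15.

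Among the 20 regulators listed as restraining adipocyte formation, all were tested and the median difference was -0.28. By the 2-fold rule 1 was lower, beside 1.87% of all probes. The gene past the rule was Id2, an inhibitor of basic helix-loop-helix transcription factors. Its place on this list is a label only, and its effect on adipocyte formation was not tested. Its probe A_52_P240542 read 2.01 and 1.91 in Ip6k1+/+ and 0.76 and 0.16 in Ip6k1-/- MEFs, so that the genotypes did not overlap. The difference was -1.50 with a standard error of 0.28, and the second Id2 probe, A_51_P219074, gave -1.49. Dlk1, a preadipocyte protein that holds back differentiation, is named although it did not pass the rule, and was singled out after its values were seen. It read 2.84 and 2.37 in Ip6k1+/+ MEFs, -2.68 in Ip6k1-/- replicate 1, then 3.34 in Ip6k1-/- replicate 2, so that 1 Ip6k1-/- line was low and the other was the highest of the 4.

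Of 21 listed regulators that favour adipocyte formation, 18 were tested with a median difference of -0.21. Egr2 and Klf15 were lower by the 2-fold rule and 0 were higher, beside 1.87% and 1.06% of all probes tested. However, Klf15 was detected only in Ip6k1+/+ MEFs. Egr2, a zinc finger factor upstream of Cebpb in the adipocyte programme, read 2.42 and 1.85 in Ip6k1+/+ and -0.49 and 0.47 in Ip6k1-/- MEFs. The genotypes did not overlap, and the difference was -2.15 with a standard error of 0.42. Klf15, a factor that acts with the late programme, read -3.84 and -4.60 in Ip6k1+/+ MEFs, whereas neither Ip6k1-/- line gave a signal well above background. Ip6k1+/+ MEFs were at least 1.41-fold higher, a lower bound that sets each Ip6k1-/- line to its array's limit, unless the probe itself was brighter. Klf15 thus did not reach a 2-fold change at this bound, nor did it pass the rule after normexp background correction without spots below their local background.

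Among the 11 adipokines and their receptors, 6 were tested and 2 were lower by the rule, beside 1.87% of all probes. Rarres2 encodes chemerin, a secreted factor of fat and other tissues, and its probe A_52_P466147 read -2.09 and -2.23 in Ip6k1+/+ MEFs. In both Ip6k1-/- lines it was not well above background, so that Ip6k1+/+ MEFs were at least 5.88-fold higher by this probe. The limma adjusted p of 0.491 belongs to the difference as measured, -3.18, which includes those dim values. The second Rarres2 probe, A_51_P350311, was detected in the same lines and gave at least 3.24-fold. The difference of the first probe was smaller after normexp background correction without spots below their local background, at -1.37 on the log2 scale. Rbp4, the carrier of retinol in blood, read 0.04 and -1.47 in Ip6k1+/+ MEFs, -2.38 in Ip6k1-/- replicate 1, and was too dim in Ip6k1-/- replicate 2 to count as above background. With the dim line at its array's limit, Ip6k1+/+ MEFs were at least 7.01-fold higher, a difference of -2.81, and the Ip6k1+/+ lines were spread by more than 1.5 on this scale. Lep, Lepr, Retn, Cfd and Sfrp5 were not well above background in any line.

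The enzymes of triglyceride synthesis held the 1 gene that was higher, Mogat2, a monoacylglycerol acyltransferase. It read 1.099 and -0.33 in Ip6k1+/+ and 2.12 and 1.87 in Ip6k1-/- MEFs, a difference of 1.61 with a standard error of 0.51. The lines did not overlap. The list had 15 tested genes, with a median difference of 0.15, and 1 was higher by the 2-fold rule, beside 1.06% of all probes.

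No gene passed the 2-fold rule in the lists for fatty acid synthesis (14 tested), for uptake and activation (15 tested), for lipid droplet proteins (8 tested) or for lipolysis (7 tested), whose medians lay between -0.17 and 0.05. Acacb, the mitochondrial acetyl-CoA carboxylase, had the lowest difference of the synthesis genes measured above background in all 4 lines, at -0.69, with -1.33 and -0.83 in Ip6k1+/+ and -1.70 and -1.84 in Ip6k1-/- MEFs. The highest was that of the elongase Elovl7, at 0.35. Elovl7 read 0.76 and -3.05 in Ip6k1+/+ and 0.84 and -2.42 in Ip6k1-/- MEFs, so that it was high in the replicate 1 lines. Of the uptake genes, the transporter Slc27a3 was at -0.64 and the acyl-CoA synthetase Acsl5 at 0.40. Of the droplet proteins, Plin4 was at -2.47, with 2.03 and -1.50 in Ip6k1+/+ and -0.42 and -4.00 in Ip6k1-/- MEFs, and Plin2 at 0.42, with 4.60 and 5.20 in Ip6k1+/+ and 5.30 and 5.34 in Ip6k1-/- MEFs. Ptrf was saturated in every line and has no measured difference. The lines overlapped for Plin4, while for Plin2 both Ip6k1-/- lines were above both Ip6k1+/+ lines. Of the lipolysis genes, the protein kinase A subunits Prkaca and Prkar2b were at -0.11 and 0.27.

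**Figure D4:**
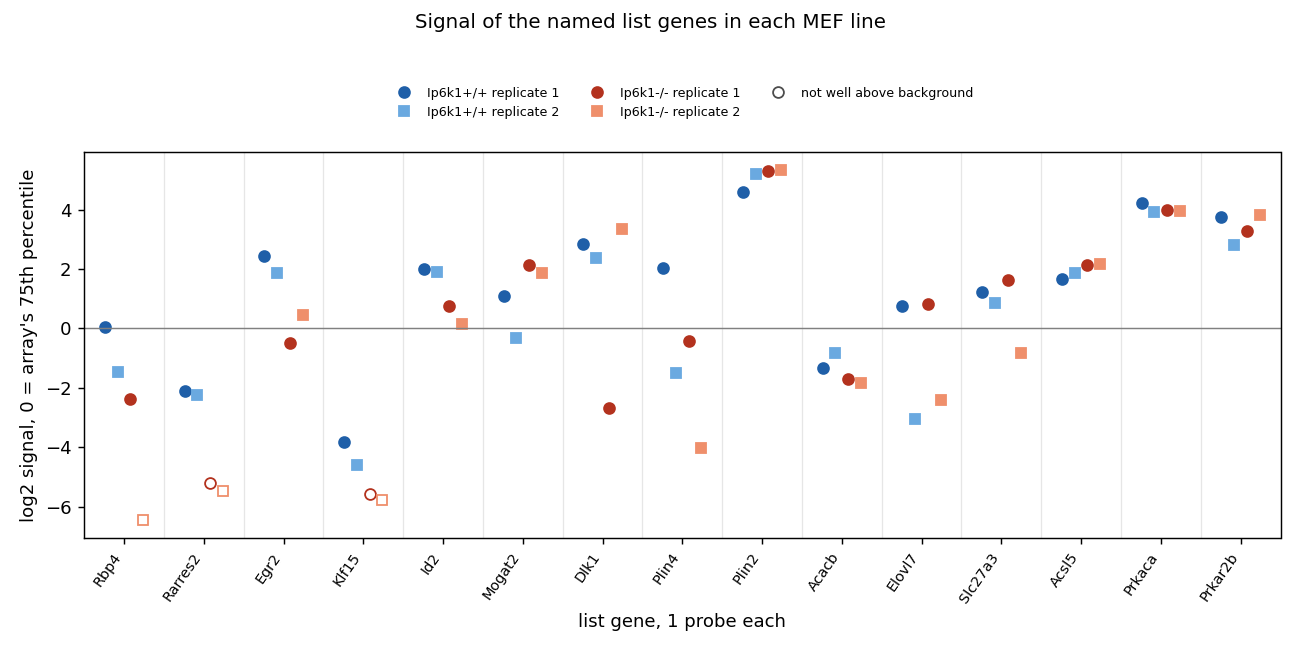
Log2 signal relative to the 75th percentile of each array (vertical axis) for the named list genes, 1 probe each (horizontal axis), in the 4 MEF lines, filled where well above background and open where not. Egr2, Id2, Rarres2, Rbp4 and Klf15 are lower in both Ip6k1-/- lines, Mogat2 is higher in both, and Elovl7 is high in replicate 1 of each genotype.

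The marker genes gave the state of the cultures beside these values. Pdgfrb, a receptor of mesenchymal cells, read 4.67 and 4.45 in Ip6k1+/+ and 3.34 and 3.39 in Ip6k1-/- MEFs, and the collagen Col3a1 read 6.24 and 5.90 against 5.46 and 4.17. Both were lower in both Ip6k1-/- lines, with differences of -1.20 and -1.25. That order held for 3 of the 9 fibroblast markers and for 12.6% of all probes tested. The median difference of the 9 markers was 0.05. The summed linear signal of the 9 fibroblast markers, in units of the array's 75th percentile, was 571 and 544 in Ip6k1+/+ and 532 and 494 in Ip6k1-/- MEFs, and Col1a1, Col1a2 and S100a4 were saturated in every line. The sum of the 5 endothelial markers was 0.132 and 0.0984 in Ip6k1+/+ and 0.172 and 0.385 in Ip6k1-/- MEFs, with Kdr, the only one above background, at -3.66, -3.99, -2.94 and -1.59. The sum of the 7 macrophage markers was 0.885 and 0.938 in Ip6k1+/+ and 0.871 and 0.696 in Ip6k1-/- MEFs. That of the 5 epithelial markers was 0.724 and 3.12 in Ip6k1+/+ and 0.476 and 1.56 in Ip6k1-/- MEFs, higher in the replicate 2 lines. Krt18 read -0.66 and 1.56 in Ip6k1+/+ and -1.35 and 0.55 in Ip6k1-/- MEFs. The adipocyte marker sum was 0.127 and 0.113 in Ip6k1+/+ and 0.131 and 0.109 in Ip6k1-/- MEFs. The part of these marker differences in the results was not tested.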

How the data were processed

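RNA of 2 Ip6k1+/+ and 2 Ip6k1-/- MEF lines was hybridized to 4 arrays on 1 slide. For every array, the authors deposited background-corrected intensity on a linear scale from Agilent Feature Extraction 10.5.1.1. They also deposited log2 values that GeneSpring had shifted by the 75th percentile, per the study's methods. The header of the scanner files names mm9, from which coordinates are given. Annotation of exons was not used here. Here the intensity was taken to log2 and reduced by each array's 75th percentile over non-control spots, outlier-flagged spots were left out and spots of 1 probe averaged. Apart from 1 offset per array, the deposited log2 values deviated from these by a median of 0.0025.

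Genotypes were compared with limma 3.58.1 under R 4.3.3 (lmFit, eBayes with a variance trend, Benjamini-Hochberg adjustment over 21572 probes). The fit was also run on simulated data with independent noise in each line, which does not copy noise shared between lines. Its outcome is not used here. For a listed gene, the tested probe with the highest mean signal was used. The members and lists were chosen with earlier results of these data known. Every member, the genes of each list past the 2-fold rule and otherwise the extremes among those well above background in all lines, and markers differing by at least 1 were named. Precision is limited by having 4 arrays, and replicates are separate lines.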

Additional observations from a re-analysis of the deposited data

How the results depend on the processing

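No member probe was called by limma under any of the 16 alternatives that refit the test. The difference of both Cebpb probes was negative under every alternative, between -1.44 and -0.94 for A_52_P605846 and between -1.09 and -0.59 for A_52_P63553, and that of Scd2 was positive under every one. With normexp background correction on all spots, 4 member probes had an unadjusted limma p below 0.05, and the 1 lower member probe past the 2-fold rule was Pparg in place of Cebpb, at -1.18. That setting also moved the median difference of all probes from 0.05 to -0.10, and 186 probes were called on the whole array in place of 3. Without spots below their local background, the median was 0.05 and Cebpb was again the 1 probe past the rule. The methods' t-test gave 0 member probes with a p below 0.05 without adjustment and 0 after Benjamini-Hochberg adjustment. A mean difference of at least 1 alone also let Lpl pass among the members, on the lower side. No share of all probes was computed for that rule, so its counts are not given. Among probes well above background on all 4 arrays, 2 list genes were lower, Egr2 and Id2. The causes were not tested. With values not well above background raised to the array's limit, chosen after seeing the data, 1 member probe and 4 list genes were lower and Klf15 no longer passed.

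Leaving out each line in turn gave between 0 and 5 lower and between 0 and 2 higher member probes past the 2-fold rule, between 6 and 17 lower and between 0 and 10 higher list genes, and between 1 and 4 member probes with an unadjusted limma p below 0.05. A line left alone in its genotype was assumed to vary like the other. With dim values as measured, the differences then ran from -2.26 to 0.50 for Pparg, from -1.62 to 0.33 for Cebpd, from -2.54 to 0.67 for Cebpa, from -3.25 to 2.65 and from -2.92 to 2.72 for the Fabp4 probes A_51_P336830 and A_51_P336833, from -6.23 to 2.76 for Lpl and from -0.039 to 0.40 for Scd1.

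The labels do not say that replicate numbers pair the lines. The deviations of same-numbered lines from their genotype means correlated at r = 0.48 across the 21572 probes, which are not independent. With the replicate number as a block, 0 member probes were called by limma, and A_52_P605846 of Cebpb had a limma adjusted p of 0.257. A block for slide or scan was not run because all 4 arrays share them. The 4 arrays limit every value, and probes not well above background give no level.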
